A study of Homo sapiens with 24 samples.

Results

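The genes described here are 35 genes of glucose breakdown and of the response to low oxygen, out of 35579 genes with values. They were taken from a fixed list of names and fall into 19 glycolytic enzymes and 16 hypoxia genes, most of them targets of the transcription factor HIF. The enzymes are HK1, HK2, GPI, PFKL, PFKM, PFKP, PFKFB3, PFKFB4, ALDOA, ALDOC, TPI1, GAPDH, PGK1, PGAM1, ENO1, ENO2, PKM, LDHA and LDHB. The hypoxia genes are SLC2A1, SLC16A3, PDK1, CA9, ADM, VEGFA, BNIP3, BNIP3L, NDRG1, P4HA1, P4HA2, EGLN1, EGLN3, HIF1A, KDM3A and ANKRD37. All 35 had matched transcripts in both experiments, and 34 passed the filter of a mean of at least 1 TPM. The exception was the hexokinase HK2, with means of 0.829 TPM in whole cells and 0.901 TPM in the fractionation experiment.

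Polyadenylated RNA of wild-type A549, an established human lung adenocarcinoma line of epithelial type, was sequenced in 24 libraries of 2 experiments, 12 in each. The whole-cell experiment had 4 groups of 3 libraries, from batches A, B and C: a pool of siRNAs against the protein kinase gene TAOK2 at 30 nM, a control siRNA pool at 30 nM, the solvent DMSO, and compound 2. The labels give compound 2 as an inhibitor of TAOK2 kinase activity; neither its dose nor its time is stated in those labels. The fractionation experiment had total, nuclear and cytoplasmic RNA of cells with control or TAOK2 siRNA, with 2 libraries per group from batches 1 and 2. The word mock stands in the title of every whole-cell library and of no fractionation library, and its meaning is not stated. No label says that the batches were separate cultures, so p-values measure the spread between these libraries only. Values are TPM, abundances per transcript length scaled so that each library sums to 1000000. They keep no read totals, so the depth behind each value is unknown beyond a minimum that the protocol sets. In bulk RNA of this kind, fewer cells expressing a gene and less RNA per cell cannot be told apart. Of 11 epithelial and lung adenocarcinoma markers 8 reached 1 TPM in whole cells, with sums of 6381 to 9525 TPM per library. Of 12 leukocyte, fibroblast and endothelial markers only CD14 and COL1A1 did, the list's sums lay between 9.68 and 33.7 TPM, and CD3E was listed at 0.

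Glycolysis splits glucose into pyruvate, and lactate dehydrogenase turns pyruvate into lactate, so that cells can make ATP without oxygen. HIF is a pair of proteins, a stable beta subunit (ARNT) and an alpha subunit such as the product of HIF1A. With oxygen present, the prolyl hydroxylases EGLN1, EGLN2 and EGLN3 mark the alpha subunit for destruction by the VHL ubiquitin ligase, and HIF1AN blocks its activity. Without oxygen the pair binds DNA at a short motif and raises transcription of glucose transporters, glycolytic enzymes and genes of blood vessel growth, pH control and mitochondrial turnover. EGLN3 and EGLN1 are targets themselves, which closes a feedback loop. HIF1A is regulated mostly at the protein level, so its RNA is not a readout of the pathway's activity. Many lung cancer lines, A549 among them, run glycolysis strongly in normal oxygen.

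The core letters bound by HIF were looked up in promoter windows of RefSeq (GRCh38.p14), each the 250 bases before a gene's annotated start. The windows of 4 genes whose level moved most with the TAOK2 siRNA are shown in part because each holds such letters close to the start. Capitals mark ACGTG or GCGTG read on either strand, so that CACGT and CACGC are the same motifs on the opposite strand.
PFKFB3, chr10:6202682-6202865, plus strand: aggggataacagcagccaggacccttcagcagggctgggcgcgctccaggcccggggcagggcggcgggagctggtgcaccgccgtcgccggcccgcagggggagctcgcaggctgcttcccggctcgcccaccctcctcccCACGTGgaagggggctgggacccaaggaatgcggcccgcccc
CA9, chr9:35673898-35673927, plus strand: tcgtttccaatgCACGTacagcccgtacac
ALDOC, chr17:28576906-28576935, minus strand: ccccggaggagtCACGTagctctgcgacat
ADM, chr11:10304960-10304989, plus strand: gagcaggagcgcGCGTGgctgaggaaagaa
The capitals lay 103 bases before the start in PFKFB3, 14 in CA9, 24 in ALDOC and 97 in ADM. CACGTG in PFKFB3 is its own reverse complement and counts as 2 overlapping matches, and the ALDOC window held 5 matches in all. The motif was in 23 of 32 members with a window (71.9%) and in 43.2% of all 35116 windows. Members count by a single window each, while the share of all windows counts every window of a gene. The members were picked as glycolysis and hypoxia genes, so their higher share is not a finding of these data. VEGFA, NDRG1 and BNIP3L had no entry. A match is a description of letters and not a bound site. In ADM, ALDOC and CA9 the RefSeq start lies 393, 369 and 72 bases from the start of the most abundant transcript here, and the stretches shown fall within GENCODE exons.

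Levels across whole-cell libraries spanned over 3 orders of magnitude. Per transcript length, the mean TPM over 12 libraries was highest for GAPDH at 5570, PKM at 3141, ENO1 at 2449, LDHA at 1783, ALDOA at 1389 and LDHB at 1253. Those enzymes work in the later, ATP-yielding steps of the pathway or interconvert pyruvate and lactate, except ALDOA, which cleaves the sugar. Among hypoxia genes SLC2A1, the main glucose importer, was at 205 TPM and HIF1A at 185 TPM. The lowest members tested were EGLN3 at 2.78, PFKFB4 at 3.23, ALDOC at 3.66, ANKRD37 at 3.93, CA9 at 3.97 and PDK1 at 4.3 TPM. Of its M1 and M2 forms, the PKM gene was read almost wholly as M2. The forms differ by the choice between neighbouring exons of 167 bases each. In whole cells M2 transcripts made up 98.56% to 98.98% of the TPM of both forms across libraries, with the groups between 98.63% and 98.83% on average. With control siRNA M2 transcripts held 2210 to 2293 TPM and M1 transcripts 27.7 to 31.6 TPM. The whole gene held 2960 to 3199 TPM there, so the rest lay in other PKM transcripts. In the fractionation experiment the groups averaged 92.99% to 96.6% M2.

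The targeted gene was lower with TAOK2 siRNA in every batch of whole cells, total RNA and nuclear RNA. Cytoplasmic RNA is not covered by the values given here. TAOK2 stood at 40.3, 38.2 and 34.3 TPM with control siRNA in batches A, B and C and at 10.6, 12.5 and 8.56 TPM with TAOK2 siRNA. Its TPM was 39.7, 40.6 and 37.5 with DMSO, beside 21.5, 30.7 and 20.5 with compound 2. The fractionated batches 1 and 2 had 9.70 and 5.01 TPM of it in total RNA of control cells against 3.67 and 2.99 TPM after TAOK2 siRNA. In nuclear RNA it was 15.6 and 9.31 against 9.68 and 6.24 TPM, so the groups overlapped across batches, though the control was higher within each.

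The first comparison, TAOK2 siRNA against control siRNA in whole cells, asks what loss of TAOK2 does to these genes. The regulator PFKFB3, the carbonic anhydrase CA9, the peptide hormone ADM and the aldolase ALDOC were each lower by about 1 log2 unit, while most abundant enzymes moved by less than 0.2. In limma with Benjamini-Hochberg adjustment over 13106 genes, 12 of 34 members passed, 4 higher and 8 lower, against 22.2% of all genes (7.78% higher, 14.4% lower). Enzymes gave 2 higher and 4 lower of 18 with a median log2 difference of -0.03. Hypoxia genes gave 2 higher and 4 lower of 16 with a median of -0.10, and the median of all genes was -0.05. Library values of the groups did not overlap for 15 members, 4 higher and 11 lower, against 47.7% of all genes.

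PFKFB3 makes the sugar phosphate that switches on phosphofructokinase, and among member enzymes it fell most. It stood at 146, 129 and 116 TPM with control siRNA (130 ± 15.4, SD, n = 3) and at 51.7, 66.6 and 51.8 TPM with TAOK2 siRNA (56.7 ± 8.6). All libraries with TAOK2 siRNA lay far below all controls. On the log2(TPM + 1) scale, which understates changes of low genes, PFKFB3 fell by 1.19 ± 0.20 (moderated SE; limma adjusted p = 0.00228). PFKFB4, its paralogue, was at 2.60, 2.48 and 3.28 against 2.44, 5.45 and 2.94 TPM, which overlapped.

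ALDOC is the aldolase form best known from brain. Its control siRNA libraries held 10.3, 9.16 and 5.08 TPM (8.19 ± 2.75) and its TAOK2 siRNA libraries 6.03, 2.40 and 3.13 TPM (3.85 ± 1.92). The groups overlapped, because batch A with TAOK2 siRNA was above batch C of the control. By batch label TAOK2 siRNA was lower in each batch, but the pairing of control siRNA of batches B and C is doubtful. ALDOC fell by 0.94 ± 0.27 (limma adjusted p = 0.026). The call was lost without control siRNA of batch A (adjusted p = 0.106) or batch B (0.0919), and without TAOK2 siRNA of batch B (0.109) or batch C (0.0854).

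CA9 is a cell-surface carbonic anhydrase of pH control and a widely used hypoxia marker. It was at 10.7, 10.6 and 9.09 TPM with control siRNA (10.1 ± 0.901) and at 6.68, 2.43 and 4.79 TPM with TAOK2 siRNA (4.63 ± 2.13). Every knockdown library was below every control, with more spread among the knockdown libraries. CA9 fell by 1.06 ± 0.23 (limma adjusted p = 0.00748). Its exons overlap those of ARHGEF39, at 12.2 TPM on average; strand use in the counting is not stated, and ARHGEF39 fell by 0.49 in the same comparison (limma adjusted p = 0.0358), so the CA9 level is uncertain to that extent.

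ADM encodes adrenomedullin, a peptide that widens blood vessels. Its 3 control siRNA libraries held 74.5, 66.7 and 60.9 TPM (67.4 ± 6.82), and those with TAOK2 siRNA held 33.6, 33.4 and 26.3 TPM (31.1 ± 4.17). The groups were well apart, and ADM fell by 1.10 ± 0.18 (limma adjusted p = 0.00151). VEGFA, the vessel growth factor, was named after its values were seen. It moved less, from 68.3, 61.7 and 56.0 TPM to 51.7, 39.3 and 42.8 TPM (-0.47 ± 0.14, limma adjusted p = 0.0287), again without overlap. The VEGFA call was lost without TAOK2 siRNA of batch B (0.118) or C (0.0852) or control siRNA of batch A (0.111) or B (0.0761).

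Not all members with a HIF link were lower. NDRG1, a stress-induced gene of the hypoxia signature, stood at 53.4, 52.8 and 52.6 TPM with control siRNA and at 80.1, 81.3 and 74.6 TPM with TAOK2 siRNA. The controls were nearly equal and all knockdown libraries were above them, a rise of 0.56 ± 0.16 (limma adjusted p = 0.0288). Leaving out any 1 of these 6 libraries took its adjusted p to between 0.0566 and 0.0903. The collagen prolyl hydroxylase subunit P4HA2 rose by 0.36 and the mitophagy receptor BNIP3 fell by 0.31, both named after their values were seen.

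Among the remaining enzymes, the muscle phosphofructokinase PFKM, named after its values were seen, rose most. It went from 42.5, 40.1 and 34.2 TPM to 55.1, 54.2 and 57.7 TPM (0.51 ± 0.10, limma adjusted p = 0.00321), with all knockdown libraries above all controls. The most abundant PFKM transcript here, PFKM-232, is only 381 bases long. PFKM exons also overlap those of SENP1, at 16.4 TPM, so the PFKM level is uncertain to that extent. HK1 rose by 0.36, and TPI1 and ENO1 fell by 0.17 and 0.13; these were singled out after their values were seen. The TPI1 and ENO1 calls were lost when each library was centred on its median, which left 4 members higher and 6 lower, against 1301 and 1385 of all genes in place of 1020 and 1885. PKM, LDHA, LDHB, GPI, PGAM1 and GAPDH did not pass, with differences from -0.06 to 0.08.

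HIF1A itself did not pass. It was at 199, 191 and 209 TPM with control siRNA and at 167, 176 and 172 TPM with TAOK2 siRNA (-0.22 ± 0.08, limma adjusted p = 0.0777), and all knockdown libraries lay below all controls. Of 15 tested genes of the oxygen sensing machinery 3 fell and 0 rose: ARNT, the partner of HIF1A, by 0.60, EGLN2 by 0.47 and ELOC, part of the VHL ligase, by 0.29. Of 36 other HIF targets outside the 35 members 3 rose and 5 fell, among them GBE1 at 0.44, TMEM45A at 0.43, MXI1 at -0.74 and JMJD6 at -0.34. Of 15 other genes of glycolysis and glucose entry 2 rose and 3 fell, with the glucose transporter SLC2A3 at 0.67 and the hexokinase HKDC1 at -0.52. Of 15 genes of gluconeogenesis and pyruvate entry 4 fell, with PCK2 at -0.41 and the pyruvate dehydrogenase subunit PDHB at -0.32, and of 8 pentose phosphate genes TALDO1 rose by 0.28 and TKT fell by 0.32.

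The count of 12 members rested on all libraries: it was 9 without TAOK2 siRNA of batch A, 8 without control siRNA of batch C, 6 without TAOK2 siRNA of batch C, 5 without TAOK2 siRNA of batch B or control siRNA of batch A, and 4 without control siRNA of batch B. PFKFB3, ADM and PFKM kept their call in every alternative run, and CA9 in every run that tested it. At a mean of 3.97 TPM, CA9 was not tested in the run that required at least 5 TPM. Each of the other 8 lost its call without at least 1 library. With batch as a block EGLN3, at 4.17, 3.40 and 2.38 against 5.52, 4.21 and 3.99 TPM, joined the rises (0.38, limma adjusted p = 0.0251 with the block and 0.136 without). The block relies on control siRNA of batch B, whose deviations did not follow those of its own batch (r from -0.302 to -0.175). The epithelial marker sums were 6381 to 6613 TPM with control siRNA and 8420 to 9326 TPM with TAOK2 siRNA, and cytoplasmic marker sums 44896 to 46676 and 50635 to 51299 TPM; their part in the members' values was not tested.

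**Figure D1:**
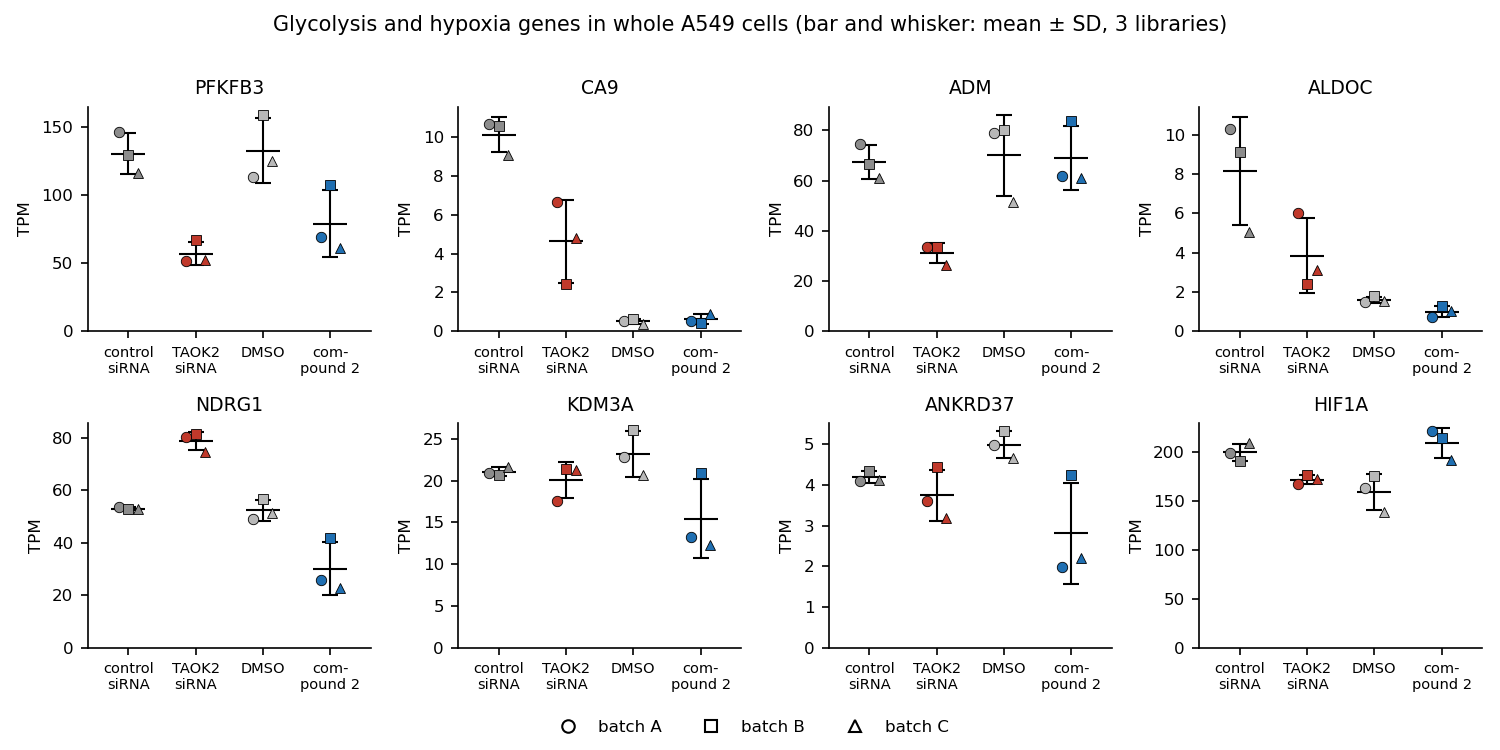
TPM of PFKFB3, CA9, ADM, ALDOC, NDRG1, KDM3A, ANKRD37 and HIF1A in the 12 whole-cell libraries, by group on the horizontal axis; markers show batches A, B and C, and bars the mean ± SD of 3 libraries. PFKFB3 and ADM are lower in all 3 TAOK2 siRNA libraries than in all 3 controls, and CA9 lies between 0.380 and 0.894 TPM in the DMSO and compound 2 libraries and between 2.43 and 10.7 TPM in those with siRNA.

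The baselines themselves differed, which sets the scale for the other whole-cell comparison. Control siRNA against DMSO asks how transfection with a control siRNA differed from the solvent; it shares its control siRNA libraries with the knockdown comparison and its DMSO libraries with the compound 2 comparison. Here 9 of 34 members passed, 8 higher and 1 lower with control siRNA, against 6.43% of all genes (4.32% higher, 2.11% lower). Enzymes gave 4 higher and 1 lower of 18, hypoxia genes 4 higher and 0 lower of 16, with medians of 0.06 and 0.19 beside 0.01 for all genes. Groups did not overlap for 16 members, 13 higher and 3 lower, against 30.0% of all genes.

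CA9 showed the widest gap. It was at 0.504, 0.638 and 0.380 TPM with DMSO, below a mean of 1 TPM, and at 9.09 to 10.7 TPM with control siRNA (2.89 ± 0.23, limma adjusted p = 0.000141). CA9 passed the filter on low values only through the siRNA libraries, so it had to differ to be tested at all. ALDOC was at 1.49, 1.77 and 1.53 TPM with DMSO and 5.08 to 10.3 TPM with control siRNA (1.77 ± 0.27, limma adjusted p = 0.00535).

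EGLN3, a HIF prolyl hydroxylase that HIF itself induces, went from 1.24, 1.37 and 0.902 TPM with DMSO to 2.38 to 4.17 TPM with control siRNA (0.98 ± 0.17, limma adjusted p = 0.00906). It was named after its values were seen, and its call was lost without control siRNA of batch A (0.0512) or B (0.0543). HIF1A rose by 0.33 (limma adjusted p = 0.0342), P4HA1 by 0.38, ENO2 by 0.31, PGK1 by 0.30 and PFKL by 0.28, and PFKP fell by 0.39. PFKFB3 and ADM, at 113, 159 and 125 TPM and 79.0, 80.0 and 51.4 TPM with DMSO, overlapped with control siRNA. Neither of the latter passed.

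Other hypoxia targets from the fixed list gave 4 higher and 1 lower of 36, with HILPDA at 0.81, RAB20 at 0.51, FAM162A at 0.43 and AK4 at 0.39. None of 15 oxygen sensing genes passed in limma, and 1 had an unadjusted p under 0.05. SLC2A3 at 0.92, GALM at 0.49 and SLC2A6 at 0.52 rose among 15 other glycolysis genes, and PDK4 at 1.19 and PC at 0.35 among 15 genes of pyruvate entry. TKT rose by 0.35 in the pentose phosphate list. The leukocyte marker CD14 was also higher with control siRNA (1.11, limma adjusted p = 0.0324), with marker sums for other cells of 15.6 to 20.2 TPM against 9.68 to 23.3 TPM. Epithelial marker sums were lower with control siRNA, at 6381 to 6613 against 7244 to 8716 TPM, and KRT7 fell by 0.59 (limma adjusted p = 0.0206). The part of these markers was not tested.

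These counts leaned on single libraries. Without control siRNA of batch A or batch B 2 members passed, without DMSO of batch C 3, without DMSO of batch A or B 5, and without control siRNA of batch C 8. Only CA9 and ALDOC kept their call in every alternative run that tested them, and neither was tested at a mean of at least 5 TPM. CA9 passed the filter on low values only through the siRNA libraries, so the stability of its call adds no support. After median centring 5 members were higher and 1 lower (421 and 354 of all genes, against 566 and 277). With batch as a block 14 members passed, 11 higher and 3 lower, against 11.8% of all genes (7.83% higher, 3.94% lower). The added calls were GPI, SLC16A3 and EGLN1 higher and LDHA and SLC2A1 lower. These also rest on the doubtful pairing of control siRNA of batch B.

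Compound 2 against DMSO asks what the inhibitor does, and the picture for these genes was divided. GAPDH and 4 other enzymes of the middle of the pathway rose, while PFKFB3, NDRG1, ANKRD37 and KDM3A fell. Of 34 members 17 passed, 9 higher and 8 lower, against 63.7% of all genes (12% higher, 51.8% lower). Enzymes gave 5 higher and 4 lower of 18 with a median of 0.05, and hypoxia genes 4 higher and 4 lower of 16 with a median of 0.02, where the median of all genes was -0.31. Groups did not overlap for 16 members, 10 higher and 6 lower, against 63.6% of all genes. Centring each library on its median moved that median by 0.51. After centring, 23 members were higher and 0 lower, against 5662 higher and 3189 lower of all genes, in place of 1571 and 6783.

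GAPDH, the abundant dehydrogenase often used as a reference gene, was at 4950, 4782 and 5164 TPM with DMSO and 6920, 6111 and 7023 TPM with compound 2. All compound 2 libraries were above all controls, a rise of 0.43 ± 0.06 (limma adjusted p = 3.63e-05). PGAM1 rose by 0.28, ALDOA by 0.24, TPI1 by 0.22 and PGK1 by 0.16, with no overlap between groups, but the PGK1 call was lost without any 1 DMSO library (0.07 to 0.11) or compound 2 of batch C (0.147). GAPDH, TPI1, ALDOA and PGAM1 passed in every alternative run. They were singled out after their values were seen.

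PFKFB3 held 113, 159 and 125 TPM with DMSO (132 ± 24.1) and 68.9, 107 and 61.0 TPM with compound 2 (79.1 ± 24.8). Batch B was highest in both groups, and no compound 2 library reached the lowest control. PFKFB3 fell by 0.76 ± 0.20 (limma adjusted p = 0.00603), but its centred difference was -0.25 (adjusted p = 0.208). This is the one member called in the same direction by both treatments, and the knockdown minus compound 2 difference was -0.43 ± 0.28 (limma adjusted p = 0.223; -0.89 and 0.00777 after centring).

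NDRG1 was at 48.8, 56.7 and 51.3 TPM with DMSO and 25.8, 41.6 and 22.8 TPM with compound 2. It fell by 0.82 ± 0.16 (limma adjusted p = 0.00081), again with batch B highest among treated libraries and no overlap, and its centred difference was -0.31 (adjusted p = 0.0521). KDM3A, a histone demethylase induced by HIF, went from 22.8, 26.1 and 20.7 to 13.2, 20.9 and 12.3 TPM (-0.58 ± 0.16, limma adjusted p = 0.0066; -0.07 and 0.633 centred). The KDM3A groups overlapped, since compound 2 of batch B was above DMSO of batch C. ANKRD37, an ankyrin repeat gene, went from 4.97, 5.32 and 4.67 to 1.97, 4.23 and 2.21 TPM (-0.70 ± 0.18, limma adjusted p = 0.00437), with -0.19 and 0.284 centred, and -0.42 and 0.127 in protein-coding transcripts alone. Its exons overlap those of UFSP2, at 15.1 TPM.

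The other falls in TPM were HK1 by 0.31, PFKP by 0.36, ENO2 by 0.28 and BNIP3L by 0.48, and all 4 turned positive after centring, at 0.20, 0.15, 0.23 and 0.03. EGLN3 rose by 0.48, PDK1, which inhibits pyruvate dehydrogenase, by 0.41, and BNIP3 by 0.25. Each of these 3 calls, and those of HK1 and BNIP3L, was lost without at least 1 library, with adjusted p from 0.0558 to 0.16. CA9 and ADM did not pass. CA9 held 0.526, 0.433 and 0.894 TPM with compound 2, near its DMSO level, and ADM 61.9, 83.7 and 61.1 TPM, which overlapped with DMSO. With batch as a block LDHA, VEGFA and P4HA2 also passed.

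HIF1A rose by 0.40 ± 0.08 (limma adjusted p = 0.000956), from 163, 175 and 139 TPM with DMSO to 222, 214 and 192 TPM with compound 2. In protein-coding transcripts alone, an alternative added after the data were seen, it did not: these held 154, 169 and 134 TPM with DMSO and 149, 172 and 145 TPM with compound 2 (0.03, adjusted p = 0.794). The rise in the summed TPM thus lay in transcripts not annotated as protein-coding. VEGFA also differed by transcript class, at 78.7, 60.3 and 58.5 TPM with DMSO and 85.7, 75.0 and 65.5 TPM with compound 2 for all transcripts (0.20, adjusted p = 0.229), but -0.35 (adjusted p = 0.031) for coding ones.

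The noncoding transcripts whose share rose most in these genes were HIF1A-208 and VEGFA-211 of GENCODE 29 (GRCh38). PFKFB3-216, which is annotated as coding, gained share in PFKFB3. The stretches below show where each parts from the main coding transcript, with capitals for bases in an exon of that coding transcript and lower case for bases outside it.
HIF1A-208, chr14:61726676-61726735, plus strand: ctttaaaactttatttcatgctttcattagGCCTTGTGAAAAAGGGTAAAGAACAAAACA
VEGFA-211, chr6:43778507-43778566, plus strand: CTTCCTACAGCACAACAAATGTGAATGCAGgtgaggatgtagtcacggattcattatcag
PFKFB3-216, chromosome 10, plus strand, across the last junction: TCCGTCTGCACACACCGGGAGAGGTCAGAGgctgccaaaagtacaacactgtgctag
HIF1A-208 is a processed transcript of 2 exons and 595 bases that starts in an intron, 285 bases before an exon of HIF1A-202 that begins at 61726706. VEGFA-211, of the retained intron type, reads 228 bases past the exon end at 43778536 and stops in the intron. PFKFB3-216 ends in an exon of its own of 27 bases, from 6225161 to 6225187, ahead of the next exon of PFKFB3-203 at 6226192.

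HIF1A-208 was almost unseen without compound 2. It held 1.32, 1.39 and 0.453 TPM with DMSO and 40.1, 29.1 and 35.2 TPM with compound 2, while both siRNA groups held 0.679 to 1.59 TPM. Its share of the gene rose from 0.644 ± 0.276% to 16.7 ± 2.67% (limma on the log2 odds, adjusted p = 4.85e-07). The coding HIF1A-202 held 115, 121 and 98.1 TPM with DMSO and 106, 118 and 102 TPM with compound 2, so its level overlapped while its share fell from 70.0 ± 0.917% to 51.9 ± 3.73% (limma adjusted p = 0.000106).

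VEGFA-211 went from 8.90, 2.48 and 3.98 to 40.0, 22.2 and 25.3 TPM, and its share rose from 7.41 ± 3.65% to 38.3 ± 8.53% (limma adjusted p = 0.000393). The coding VEGFA-205 went from 33.7, 24.0 and 23.9 to 16.1, 20.9 and 12.4 TPM, and its share fell from 41.2 ± 1.58% to 21.8 ± 5.20% (limma adjusted p = 0.00035). So VEGFA-211 was higher and VEGFA-205 lower in all compound 2 libraries than in all DMSO libraries. Protein-coding VEGFA transcripts together held 59.1, 48.2 and 46.1 TPM with DMSO and 39.4, 47.1 and 33.3 TPM with compound 2. Those sums overlapped between the groups. VEGFA-205 was also at 27.2, 28.5 and 25.0 TPM with control siRNA and 15.8, 14.2 and 15.7 TPM with TAOK2 siRNA.

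PFKFB3-203 went from 88.3, 132 and 92.5 to 37.9, 57.9 and 35.7 TPM under compound 2, and its share fell from 78.6 ± 4.58% to 55.8 ± 2.44% (limma adjusted p = 0.000749). PFKFB3-216 went from 4.34, 0.0478 and 6.14 to 17.5, 25.7 and 13.4 TPM (2.93 ± 2.57% to 23.8 ± 1.67%, limma adjusted p = 0.0352). That share call was lost with 0.1 TPM added in place of 0.5 (adjusted p = 0.10), and control siRNA libraries held 23.5, 1.47 and 0.000786 TPM, a wide spread for 1 group. In ENO2 the main coding transcript ENO2-201 gained, from 63.6 ± 1.89% to 76.1 ± 0.81% (limma adjusted p = 0.00083).

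Over all member genes, 55 of 175 transcripts in 27 genes changed their share with compound 2, 22 higher and 33 lower, against 34.8% of all 39492 transcripts. Retained intron transcripts gave 5 higher and 18 lower of 36, where 18.3% and 23.9% of all such transcripts were higher and lower. Protein-coding ones gave 11 higher and 12 lower of 113, where the figures for all were 15.1% and 17.8%. Under knockdown 1 of 175 passed, against 0.081% of all transcripts, and 0 did with the block or with 0.1 TPM added; at an unadjusted p under 0.05 these were 15, 13 and 13 member transcripts in limma, beside 4242, 4612 and 3875 of all 39492.

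**Figure D2:**
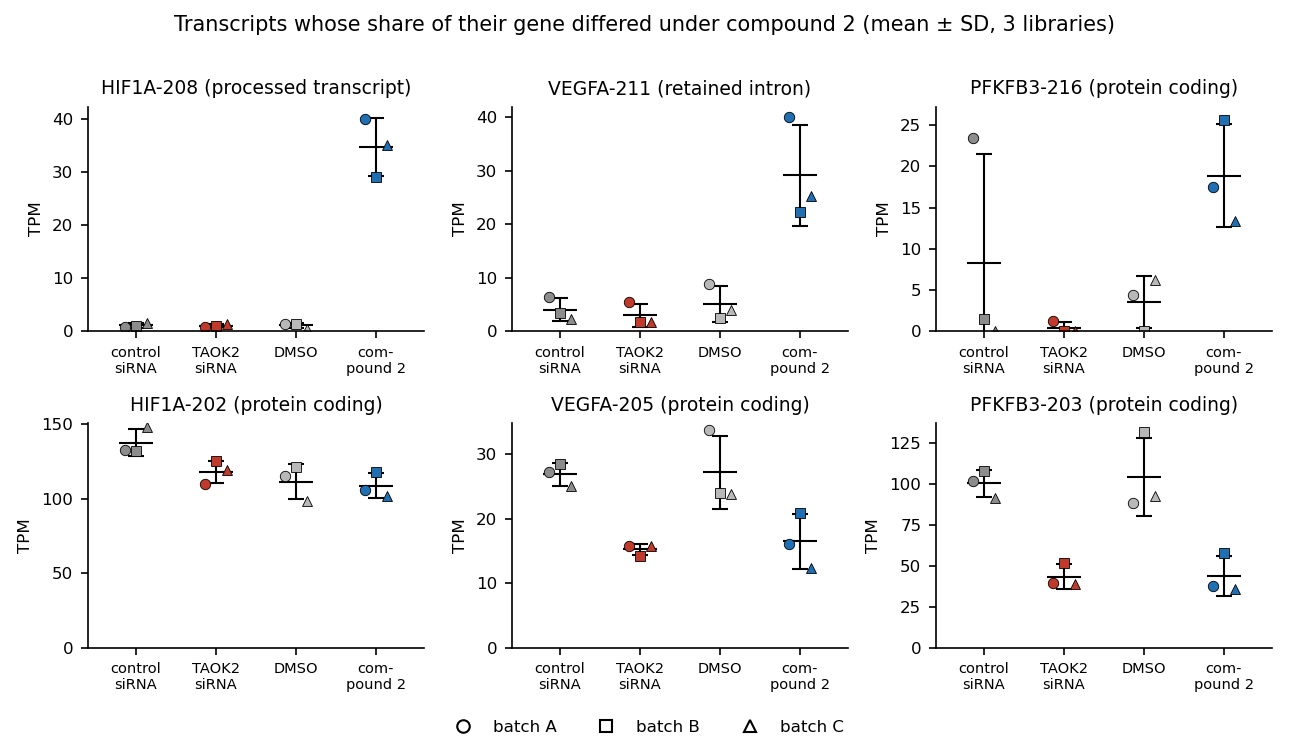
TPM of HIF1A-208, HIF1A-202, VEGFA-211, VEGFA-205, PFKFB3-216 and PFKFB3-203 in the 12 whole-cell libraries, by group; points are libraries and bars the mean ± SD of 3. HIF1A-208 lies at 29.1 to 40.1 TPM with compound 2 and at 0.453 to 1.59 TPM in the other 9 libraries, while HIF1A-202 overlaps between DMSO and compound 2.

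Genes around the members moved widely with compound 2. The oxygen sensing list gave 5 higher and 8 lower of 15, with the asparagine hydroxylase HIF1AN from 30.4 ± 2.78 to 6.37 ± 1.09 TPM (-2.10), EGLN2 at -1.20, ARNT at -1.07 and the ubiquitin ligase SIAH1 at 1.06. Other HIF targets gave 4 higher and 17 lower of 36, with JMJD6 at -1.57, TGFB3 at -1.31, KDM4B at -1.26 and NDUFA4L2 at -1.19. Other glycolysis genes gave 3 higher and 8 lower of 15, with HKDC1 at -1.53, TIGAR at -1.12 and the lactate carrier SLC16A1 at 0.67. Gluconeogenesis and pyruvate entry genes gave 4 higher and 9 lower of 15, with PCK2 at -2.19 and PDP2 at -1.0, and pentose phosphate genes 1 and 1 of 8, with H6PD at -1.14 and RPIA at 0.40. Nuclear-detained RNA markers summed to 552 to 791 TPM with compound 2 and 416 to 476 TPM with DMSO. Cytoplasmic RNA markers were higher as well, at 48996 to 51039 against 43280 to 44617 TPM, and 9 of 10 rose. The part of either list in these values was not tested.

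**Figure D3:**
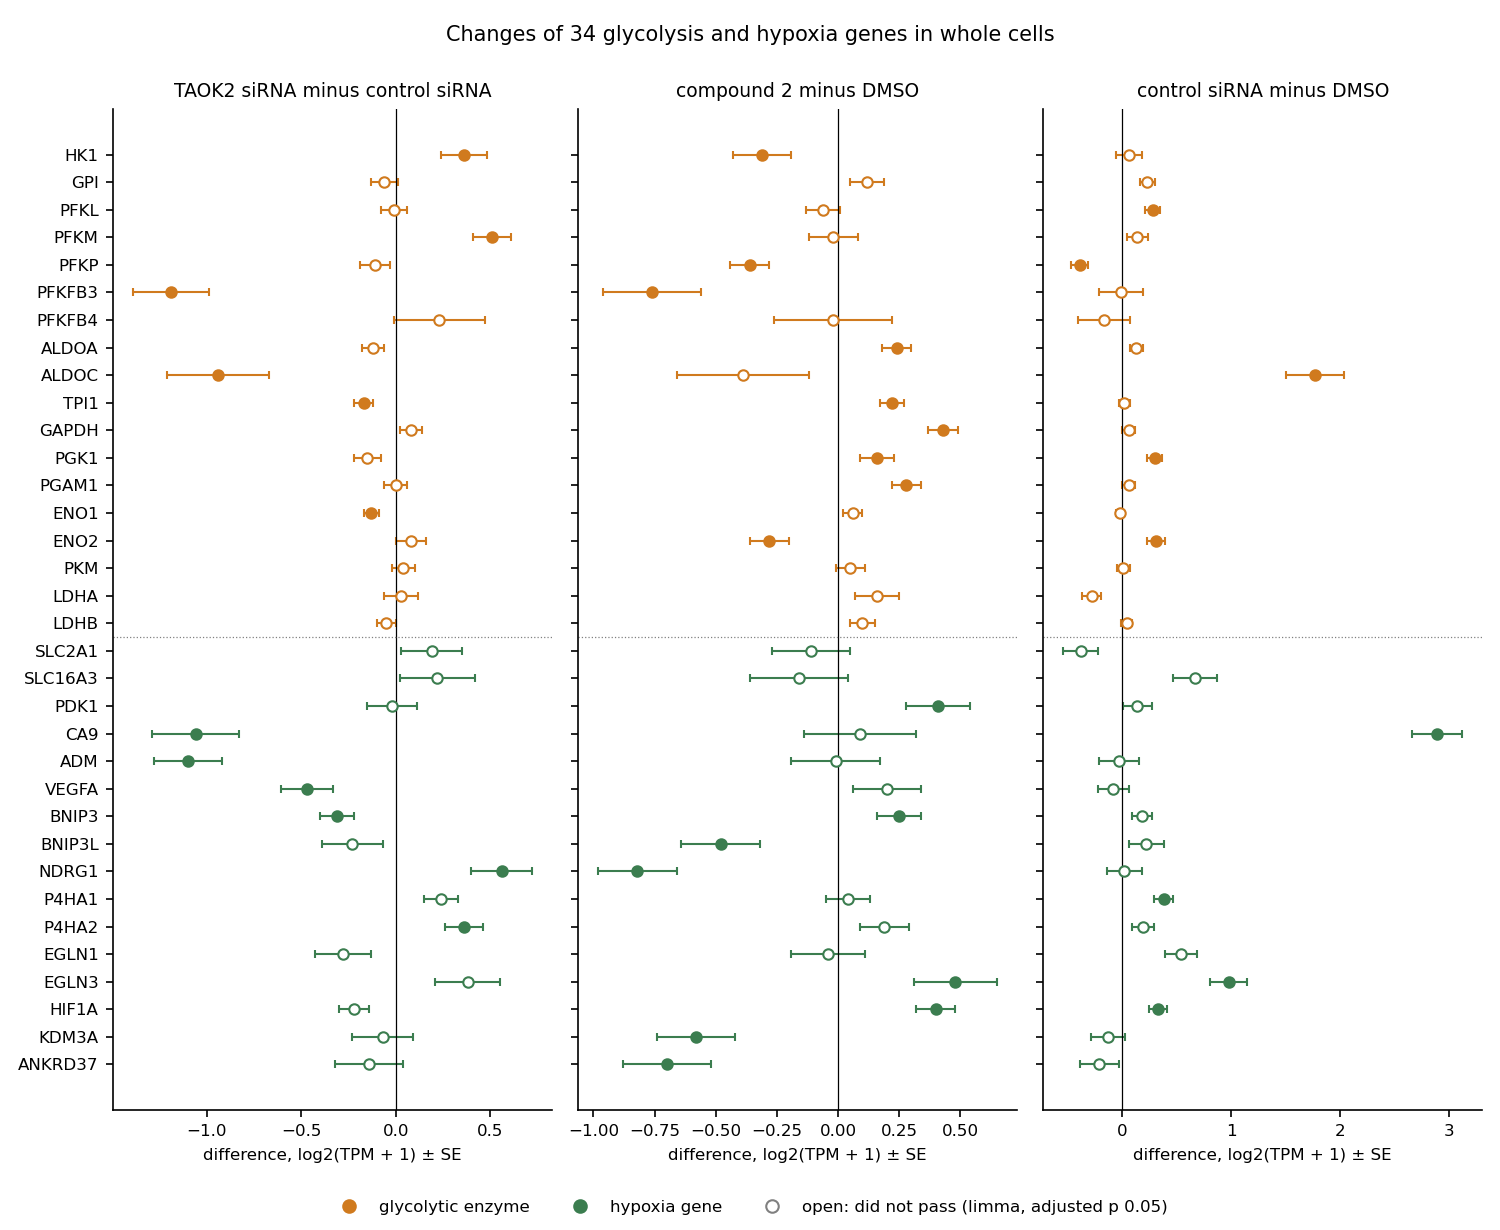
Log2 difference ± SE of 34 members in 3 whole-cell comparisons, knockdown of TAOK2, compound 2, and control siRNA, the last relative to DMSO; filled points passed at a limma adjusted p of 0.05. Knockdown has 4 filled points to the right of zero and 8 to the left, compound 2 has 9 and 8, and control siRNA has 8 and 1.

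Whether the treatments differed in effect was tested as the knockdown effect minus the compound 2 effect. They differed for 15 of 34 members, 4 higher and 11 lower, against 54.7% of all genes (42.4% higher, 12.3% lower). Enzymes gave 3 higher and 6 lower of 18 (median -0.16), hypoxia genes 1 higher and 5 lower of 16 (median 0.03), and the median of all genes was 0.30. Centring moved that median by -0.46 and left 1 member higher and 21 lower, against 2766 and 4674 of all genes in place of 5560 and 1614.

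The widest gap was NDRG1, up with knockdown and down with compound 2 (difference 1.38 ± 0.23, limma adjusted p = 0.000332; 0.92 and 0.00122 centred). ADM differed by -1.08, VEGFA by -0.67, HIF1A by -0.62 and BNIP3 by -0.56, each lower with knockdown relative to compound 2. In protein-coding transcripts alone the VEGFA and HIF1A calls were lost, at -0.12 (adjusted p = 0.607) and -0.25 (0.126). CA9 also passed at -1.15, but with a mean of 0.507 TPM with DMSO it had no room on this scale for a fall like that of the knockdown, so nothing is read from its difference. Among enzymes TPI1 at -0.39, GAPDH and ALDOA at -0.35, PGK1 at -0.32, PGAM1 at -0.28 and ENO1 at -0.19 were lower, and HK1 at 0.67, PFKM at 0.53 and ENO2 at 0.36 higher. After centring these last 3 lost their call, with HK1 at 0.20 (adjusted p = 0.248), PFKM at 0.07 (0.741) and ENO2 at -0.10 (0.54), and PFKM and ENO2 also lost it in coding transcripts alone (0.0546 and 0.133). Of 5 members called in both single comparisons, HK1, TPI1, BNIP3 and NDRG1 went in opposite directions and passed the test of the difference, except that HK1 was on the positive side in both after centring (0.40 and 0.20).

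The knockdown in the fractionation experiment asks whether the members moved alike in total, nuclear and cytoplasmic RNA. In limma 0 members passed in each of them, against 0.0%, 0.0145% (2 genes, both higher) and 0.0% of 13751 genes. At an unadjusted p under 0.05 there were 7, 17 and 2 members and 917, 1328 and 933 genes. Members were mostly on the positive side: 30 of 34 in total RNA, 30 in nuclear RNA and 23 in cytoplasmic RNA. Groups did not overlap for 17, 22 and 15 members, against 31.7%, 38.6% and 28.1% of all genes. Enzyme medians were 0.23, 0.68 and 0.28, hypoxia medians 0.22, 0.33 and 0.16, and all-gene medians -0.01, -0.05 and -0.06. Fractions of a batch share their cells, so these 3 readings are not independent.

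With batch, which the labels give, as a block, 339, 811 and 404 genes passed (2.47%, 5.9% and 2.94%). In nuclear RNA 14 members then passed, 13 higher and VEGFA lower, against 2.77% of genes higher and 3.13% lower. The 13 were HK1, PFKFB4, ALDOA, TPI1, GAPDH, PGK1, PGAM1, ENO1, PKM, LDHA, LDHB, SLC2A1 and CA9, so that 11 of 18 enzymes were among them. In total and cytoplasmic RNA only PGAM1 passed.

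PGAM1 interconverts phosphoglycerates. It was at 254 and 240 TPM in total RNA of control cells against 338 and 313 TPM after TAOK2 siRNA (0.40 ± 0.13, limma adjusted p = 0.484, 0.048 with the block). In nuclear RNA it was at 111 and 103 against 187 and 173 TPM (0.74, limma adjusted p = 0.108, 0.00427 with the block), and cytoplasmic RNA 250 and 243 against 323 and 322 TPM (0.39, 0.527 and 0.0466). No fraction showed overlap. Pseudogenes of PGAM1 held up to 15.2% of its own TPM in a library of this experiment, so its TPM is uncertain to that extent. GAPDH in nuclear RNA was at 1878 and 2122 against 3241 and 3575 TPM (0.77, limma adjusted p = 0.136, 0.00478 with the block), a similar gap. LDHA held 1065 and 1024 against 1916 and 1643 TPM there, and PKM 1599 and 1429 against 2755 and 2596 TPM.

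PFKFB3, CA9 and ALDOC did not repeat their whole-cell falls. PFKFB3 was at 88.4 and 54.1 TPM with control siRNA and 85.8 and 55.0 TPM with TAOK2 siRNA in total RNA (-0.01), and batches differed more than treatments. CA9 was at 16.9 and 20.9 against 24.9 and 24.1 TPM in total RNA (0.37 ± 0.23), higher with TAOK2 siRNA in both batches. In nuclear RNA CA9 was at 11.5 and 13.6 against 21.6 and 26.5 TPM (0.89, limma adjusted p = 0.0144 with the block). ALDOC in total RNA was at 12.2 and 23.2 against 22.7 and 21.6 TPM, with overlap.

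ADM and VEGFA were lower in total RNA, as in whole cells. ADM in total RNA was at 72.7 and 57.5 against 48.0 and 27.3 TPM (-0.82 ± 0.42, limma adjusted p = 0.869, 0.082 with the block), lower in both batches and in the cytoplasm too, at 63.7 and 46.3 against 43.6 and 29.3 TPM. In nuclear RNA ADM was at 64.0 and 27.1 against 33.5 and 28.7 TPM, lower in batch 1 only. VEGFA in total RNA was at 47.3 and 39.1 against 33.6 and 25.9 TPM, and in nuclear RNA at 111 and 126 against 64.8 and 66.2 TPM (-0.84, limma adjusted p = 0.0242 with the block). NDRG1, which rose in whole cells, was at 79.9 and 63.5 against 97.4 and 88.1 TPM in total RNA, without overlap but not past the test. HIF1A was at 393 and 349 against 415 and 454 TPM in total RNA and at 320 and 301 against 362 and 337 TPM in nuclear RNA, higher with TAOK2 siRNA in both batches. In cytoplasmic RNA HIF1A was at 243 and 231 against 137 and 257 TPM, lower in batch 1 and higher in batch 2. Both tables were normalized separately, so the whole-cell and fractionation values are set side by side and not tested against each other.

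Other measures differed in nuclear RNA as well. Cytoplasmic RNA markers, a list that includes MT-CO1 and MT-CYB, were lower there with TAOK2 siRNA. They summed to 92211 to 95809 TPM, against 98025 to 103556 TPM in control cells. Nuclear-detained RNA markers summed to 1564 and 1644 TPM in the nuclear libraries of control cells and to 983 and 1037 TPM in those with TAOK2 siRNA, and 0 of 8 were on the positive side (median -0.62). Beside the enzyme median of 0.68, medians in nuclear RNA were 0.07 for other glycolysis genes, 0.25 for gluconeogenesis and pyruvate entry, 0.09 for pentose phosphate genes and 0.09 for other HIF targets. Epithelial marker sums were higher with TAOK2 siRNA in all 3, at 5117 to 5709 against 3118 to 3785 TPM in nuclear RNA, 4420 to 5684 against 3332 to 4019 TPM in total RNA and 3501 to 3862 against 2774 to 2890 TPM in cytoplasmic RNA. The part of these markers in the members' values was not tested. A direct test of the knockdown effect on the nuclear to cytoplasmic difference called 0 members and 0.0% of genes, with or without the block in limma. It gave positive values for 18 of 18 enzymes (median 0.38) and 12 of 16 hypoxia genes (0.25) beside a median of 0.02 for all genes, and 1 member, GAPDH, and 184 genes had an unadjusted p under 0.05.

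**Figure D4:**
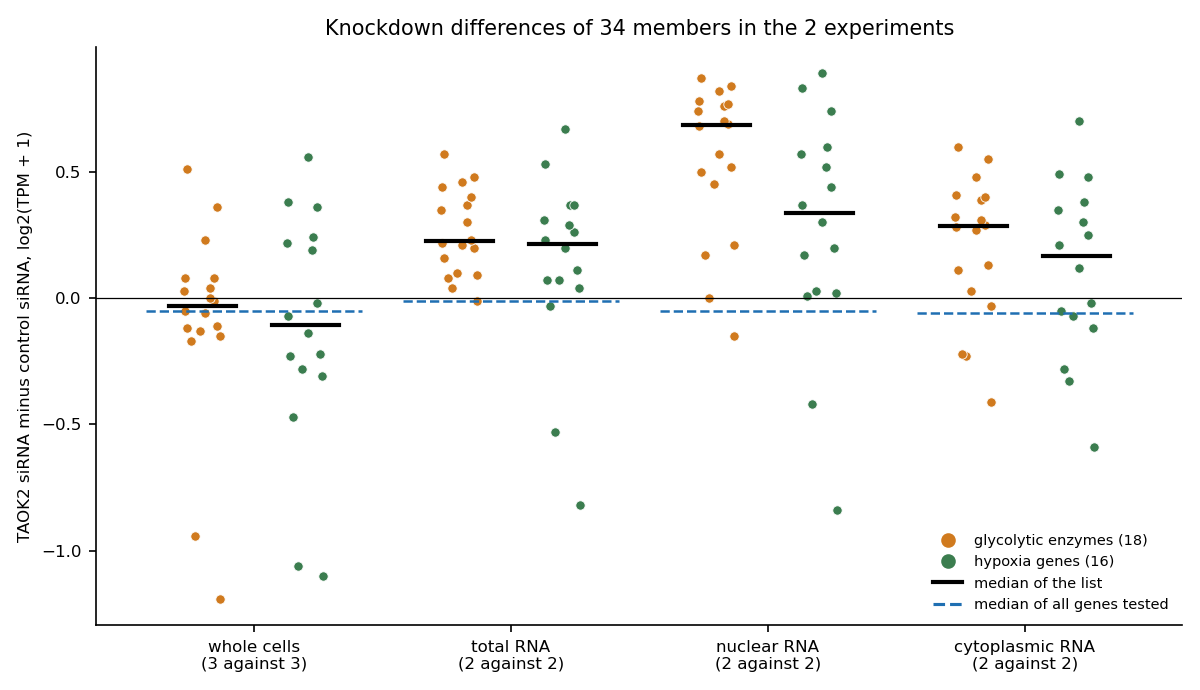
Log2 difference of TAOK2 siRNA minus control siRNA for 34 members in whole cells and in total, nuclear and cytoplasmic RNA, each point a gene, with the median of enzymes, of hypoxia genes and of all genes as lines. Enzyme medians are -0.03, 0.23, 0.68 and 0.28 in that order, and all-gene medians lie between -0.06 and -0.01.

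Nuclear against cytoplasmic RNA with control siRNA compares the members' relative abundance within each fraction. Each library sums to 1000000 TPM and the RNA yield of the fractions is not among the values used. The values therefore do not tell where most RNA of a gene lies. MT-CO1 alone averaged 60848 TPM in nuclear and 8280 TPM in cytoplasmic RNA. Of 34 members 17 passed, 5 higher in nuclear RNA and 12 lower, against 48.7% of all genes (29.8% higher, 18.9% lower). Enzymes gave 3 and 5 of 18 (median -0.03), hypoxia genes 2 and 7 of 16 (median -0.35), and the median of all genes was 0.21. Groups did not overlap for 23 members, against 76.2% of all genes. Centring moved that median by -0.39 and left 3 members higher and 15 lower, against 2779 and 4095 of all genes in place of 4101 and 2598. Separation was visible in 8 of 8 nuclear-detained markers (median 3.32), but of 10 cytoplasmic markers 3 were higher in nuclear RNA, with the mitochondrial MT-CO1 at 2.88 and MT-CYB at 2.31.

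All members named in this comparison were chosen after their values were seen. GAPDH was at 1878 and 2122 TPM in nuclear RNA and 4111 and 4574 TPM in cytoplasmic RNA (-1.12 ± 0.14, limma adjusted p = 0.000335). PGAM1 at -1.20, TPI1 at -1.07, LDHB at -0.95 and LDHA at -0.63 were on the cytoplasmic side as well. ENO2, the enolase best known from neurons, was on the other side from these enzymes, at 111 and 114 against 37.9 and 42.4 TPM (1.47 ± 0.14, limma adjusted p = 7.09e-05). PFKFB4 at 0.82 and PKM at 0.58 were also higher in nuclear RNA, and both lost their call after centring, at 0.43 and 0.20. In protein-coding transcripts alone they were at 0.01 and 0.03 (limma adjusted p = 0.952 for each). PFKFB4 exons overlap in position those of UCN2, at 2.43 TPM in whole cells beside 3.23 TPM for PFKFB4.

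Of the hypoxia genes, both mitophagy receptors were among the lowest in nuclear relative to cytoplasmic TPM. BNIP3 was at 19.9 and 22.2 TPM in nuclear RNA and 49.4 and 54.7 TPM in cytoplasmic RNA (-1.27), and BNIP3L at 24.6 and 32.1 against 59.0 and 83.9 TPM (-1.30). EGLN1 at -1.08, EGLN3 at -1.0, P4HA1 at -0.95, CA9 at -0.86 and SLC2A1 at -0.72 followed. KDM3A was at 31.8 and 32.6 against 8.23 and 13.7 TPM (1.51), higher in nuclear RNA. BNIP3 shares sequence with its pseudogenes, which held up to 70.0% of its own TPM in a fractionation library, so its TPM is uncertain. BNIP3L exons overlap in position those of PNMA2, at 15.4 TPM in whole cells, so the BNIP3L level is uncertain to that extent.

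Like PFKFB4 and PKM, VEGFA depended on which transcripts were counted. All its transcripts held 111 and 126 TPM in nuclear RNA and 36.1 and 33.1 TPM in cytoplasmic RNA (1.75 ± 0.21, limma adjusted p = 0.000256), but the difference in protein-coding transcripts alone was -0.18 (adjusted p = 0.671). With coding transcripts alone 2 members were higher and 10 lower, against 1901 and 3212 of all genes, and the CA9 and SLC2A1 calls were among those lost (-0.67 and -0.40). Without cytoplasmic RNA of batch 2 the count of members fell to 9 and without nuclear RNA of batch 1 to 11. Other lists were split too, with 10 higher and 9 lower of 39 other HIF targets, such as ANKZF1 at 3.04 and HIGD1A at -2.32, 5 and 2 of 16 other glycolysis genes, with ENO3 at 2.40 and BPGM at -1.82, and 4 and 5 of 15 oxygen sensing genes, with ELOC at -2.03.

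**Figure D5:**
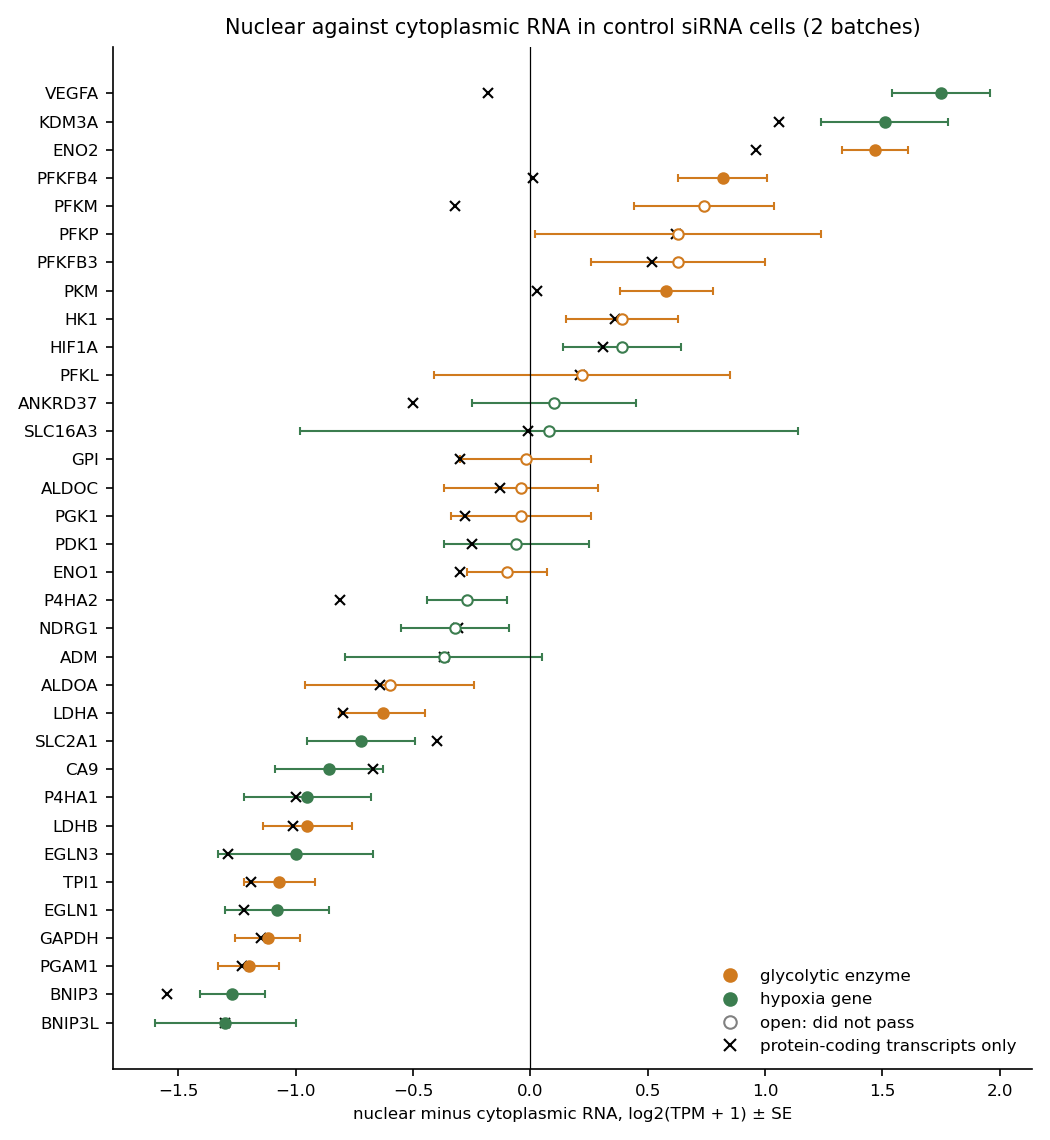
Log2 difference of nuclear minus cytoplasmic RNA ± SE for 34 members in control siRNA cells (2 libraries each); filled points passed at a limma adjusted p of 0.05, and crosses give the value from protein-coding transcripts alone. VEGFA lies at 1.75 with all transcripts and at -0.18 with coding ones, while GAPDH, TPI1, PGAM1 and BNIP3 lie below -1.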

How the data were processed

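The deposited values are TPM per transcript, which the authors made with kallisto (version not given in the sources used here) on GRCh38.p14, per the submitters' processing notes. RNA was polyA-selected, of integrity number above 6, and read in pairs of 150 bp, per the labels' protocols. Every library sums to 1000000 TPM. Of 188753 transcripts 169797 (89.96%) matched GENCODE 29 and held 97.0% to 98.3% of TPM; TPM was summed per gene. A gene entered the test if it averaged 1 TPM or more across the 12 libraries of its experiment. The test was limma 3.58.1 (R 4.3.3, statmod 1.5.0) on log2(TPM + 1), with group means over all 12 libraries, trended and robust moderation, and Benjamini-Hochberg adjustment at 0.05 within each of 9 comparisons. Transcript shares were tested on log2 odds with 0.5 TPM added, for transcripts of at least 1 TPM in genes of at least 5 TPM.

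The fit was tested on simulated data. At a log2 change of 1 it recovered 92 of 100 changed genes in the whole-cell knockdown and 26 of 100 in total RNA. At 2, these were 100 and 81 of 100. The simulated libraries had independent noise and no batch effect, unlike the real ones. Changed genes were drawn from those above about 5 TPM, so the rates say nothing of members below that. Libraries were paired by their batch label. After removing group means, same-batch pairs correlated at -0.302 to 0.639 in whole cells, with 12 of 18 over 0.1, and 10 of 12 libraries were nearest their own batch. Control siRNA of batch B (-0.302 to -0.175) was nearest batch A, and that of batch C (-0.0263 to 0.454) nearest batch B, so their pairing is doubtful. Fractionation pairs correlated at 0.531 to 0.837, with 30 of 30 over 0.1.

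Members and the 9 other lists (158 entries, 149 matched) were chosen with earlier results of these data known. Library values are given for members that passed with an absolute log2 change of at least 0.58 in the knockdown or compound 2 comparison, or in 2 or more fractionation knockdown comparisons, and for HIF1A; from other lists up to 4 genes with the smallest adjusted p, and transcripts whose share changed by at least 10 percentage points. Alternatives were a pseudocount of 0.1 TPM, no filter, a mean of at least 5 TPM, median centring, the batch block, only the groups compared, plain moderation, each library left out and, added after the data were seen, protein-coding transcripts alone.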

Additional observations from a re-analysis of the deposited data

Results flagged for a closer look

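For 8 members every batch moved one way with TAOK2 siRNA in whole cells and every batch the opposite way in total RNA of the fractionation experiment. The experiments were normalized separately, and the difference between them was not tested. How many of all genes met this pattern was not counted. Batches were matched by label, and in whole cells the pairing of control siRNA of batches B and C is doubtful. Higher in total RNA and lower in whole cells were CA9 (0.37 and -1.06 on the log2 scale), ENO1 (0.30 and -0.13), TPI1 (0.23 and -0.17), HIF1A (0.23 and -0.22), LDHB (0.21 and -0.05), PGK1 (0.20 and -0.15) and ALDOA (0.16 and -0.12). P4HA2 went the other way, at -0.03 in total RNA and 0.36 in whole cells. None of the 8 total RNA values passed in limma, with or without the batch block, and of the whole-cell values CA9, ENO1, TPI1 and P4HA2 passed.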

How the results depend on the processing

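Member calls that held in every alternative that tested the gene were 4 of 12 in the knockdown and 4 of 17 with compound 2. They were 9 of 15 in the difference of the treatments, 2 of 9 in control siRNA against DMSO and 8 of 17 between fractions. CA9 and ALDOC, which are counted there, were not tested in whole cells at a mean of at least 5 TPM. Without the filter on low values the knockdown called 6 members and control siRNA against DMSO 4, with 416 genes. With batch as a replicate block control siRNA against DMSO called 1543 genes and 14 members, total RNA 339 and 1, nuclear RNA 811 and 14, cytoplasmic RNA 404 and 1; the block ended no member call, and beyond those named in the report added PFKP, LDHB, SLC2A1, SLC16A3, PDK1, KDM3A and ANKRD37 to the difference and PFKM, PFKP, PFKFB3 and ALDOA between fractions. Other fractionation counts stayed small: total RNA 1 gene without the filter or with plain moderation and 3 centred; nuclear RNA 115 genes and 1 member without the filter, 7 at a mean of 5 TPM, centred or with plain moderation, 4 with coding transcripts and 0 with only the groups compared; cytoplasmic RNA 1 with 0.1 TPM added, 3 without the filter and 5 at a mean of 5 TPM; the change in the nuclear to cytoplasmic difference 10 without the filter. Knockdown transcript shares gave 0 member calls with 0.1 TPM added and 0 with the block.

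Leaving out each library gave 1678 to 2270 genes and 4 to 9 members in the knockdown, 7786 to 8606 and 13 to 15 with compound 2, 6587 to 7819 and 15 to 18 in the difference, 117 to 825 and 2 to 8 in control siRNA against DMSO, and 4793 to 5184 and 9 to 14 between fractions; the other fractionation comparisons gave 0 to 1 genes and 0 members. Directions reversed for HK1 (0.20), PFKP (0.15), ENO2 (0.23) and BNIP3L (0.03) with compound 2 and for ENO2 (-0.10) in the difference after centring, and for VEGFA between fractions with coding transcripts (-0.18); the cause was not tested. TPM keep no depth, so counting error cannot be given, and 2 libraries per group limit the fractionation results.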

Other observations

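Several members stood at different levels in the control siRNA libraries of both experiments, which were normalized separately. Mean TPM in whole cells and in total RNA of the fractionation experiment was 70.7 and 7.15 for the lactate exporter SLC16A3, 70.3 and 8.71 for PFKL, 176 and 29.7 for SLC2A1 and 449 and 134 for PFKP. EGLN3 at 3.32 and 20.4, P4HA1 at 28.2 and 72.9 and PGK1 at 399 and 1111 lay the other way. Across 34 members the log2 ratio of total RNA to whole cells correlated with the GC percent of the most abundant transcript at r = -0.574 and rho = -0.553, a description across genes that share libraries. SLC16A3 exons overlap in position those of CSNK1D, at 136 TPM, and PFKM exons those of SENP1, at 16.4 TPM.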
